A study of Rattus norvegicus with 4 samples.

Results

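The genes of interleukin-6 (IL-6), oncostatin M and gp130 signalling were followed through the cell classes of the infarcted rat heart by single-nucleus RNA sequencing. The genes were taken by symbol, and all 10 were found among the 32623 features of the deposited gene table: the ligand genes Il6 (ENSRNOG00000010278), Osm (ENSRNOG00000024390), Lif (ENSRNOG00000007002) and Il11 (ENSRNOG00000017386), the receptor genes Il6r (ENSRNOG00000020811), Osmr (ENSRNOG00000033192), Lifr (ENSRNOG00000011696) and Il6st (ENSRNOG00000013963), the transcription factor gene Stat3 (ENSRNOG00000019742) and the inhibitor gene Socs3 (ENSRNOG00000002946). The study took 4 samples from the infarct zone of Sprague Dawley rats, 1 called Sham and 3 called MI_1H, MI_6H and MI_24H, each with 1 library of nuclei. The treatment labels attach the word reperfusion to the 1, 6 and 24 h of myocardial infarction (MI), whereas the series text speaks of coronary ligation for the same lengths of time and names reperfusion as a separate arm. The meaning of the hours is therefore uncertain. The labels used here name no allele, agent, age or number of animals for any group. The 4 libraries share a single matrix in which barcode suffixes 1 to 4 tell them apart, and no source used here ties a suffix to a sample. The libraries are therefore called 1 to 4 by suffix, no library is read as sham or as a time, and with 1 library per sample no difference between libraries has a replicate check.

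IL-6, oncostatin M, leukaemia inhibitory factor and IL-11 are secreted cytokines that share the signalling chain gp130, encoded by Il6st. Each ligand also needs its own chain: the IL-6 receptor (Il6r), which can be shed and then serve cells that do not make it, the oncostatin M receptor (Osmr), the leukaemia inhibitory factor receptor (Lifr) or the IL-11 receptor (Il11ra1). The assembled receptors act through JAK kinases on STAT3, and SOCS3, itself a STAT3 target, binds gp130 and limits the signal. In the heart the system is known for acute inflammation, for cardiomyocyte growth and survival, and for fibrosis.

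After filtering, 8363, 12897, 14287 and 6181 nuclei of libraries 1 to 4 were used. The median nucleus held 1296, 602, 1884 and 2215 unique molecular identifiers (UMIs). Clusters were named from fixed heart markers, and each name ends in "-like" because it rests on markers alone. The 13 classes held 28146 of 41728 nuclei, and 23 of 87 clusters stayed unnamed. Library 2 stood apart before any result, since 9823 of its nuclei (76.2%) lay in unnamed clusters and no macrophage-like class could be named in it. The cardiomyocyte-like class held 2606, 510, 1802 and 755 nuclei, the endothelial-like class 2037, 912, 2767 and 918, the fibroblast-like class 2325, 1023, 2670 and 1038, and the pericyte-like class 543, 548, 447 and 294. Clusters of 725 and 247 nuclei in library 4 and of 119 in library 1 scored highest for endothelium but stayed unnamed. They lie outside the endothelial-like levels below. Macrophage-like nuclei numbered 317, 3297 and 859 in libraries 1, 3 and 4, and neutrophil-like nuclei 81, 720 and 142 in libraries 2, 3 and 4. Of all barcodes, 529 carried a core sequence that was also seen in another library. A level below is the gene's UMI sum over a class in a library per 1000000 UMIs of that class (CPM), and intervals in parentheses are 95% exact Poisson intervals for levels and conditional binomial intervals for ratios, which cover counting error only. Levels are compared between classes and libraries of the same gene and not between genes, because no length scaling was made. Free RNA, which droplets share, was estimated for each class as the share of UMIs at which subtracting the library's profile brings the markers of other classes to 0, and levels with it subtracted are given where they differ much. These markers were taken as 1 sum, so the share is an upper estimate. A level of 0 after subtraction does not show that a class lacks the RNA. In cardiomyocyte-like nuclei of library 1 pericyte markers summed to 1045 CPM, against 131, 151 and 19.2 CPM for endothelial, fibroblast and macrophage markers.

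The genes divided into abundant and scarce ones. Over all barcodes Stat3 gave 5691, 5222, 15520 and 8367 UMIs in libraries 1 to 4 and Il6r 1385, 2248, 13325 and 3457. Socs3 gave 11, 8, 127 and 69 UMIs, Lif 7, 17, 21 and 17, Il6 1, 182, 81 and 41, Osm 11, 176, 172 and 67, and Il11 12, 364, 238 and 119. The receptor chains and Stat3 could thus be described in most classes, whereas the ligands and Socs3 rest on few molecules in each class.

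A class was said to lead where its level was the highest in a library among classes of at least 50 nuclei in which the gene had at least 30 UMIs in that library. Of the 10 genes, 6 had a leading class in at least 3 libraries. It was the same class in at least 3 libraries for 3 of these 6, Osmr (pericyte-like), Lifr (endothelial-like) and Il11 (fibroblast-like), whereas 49.2% of all 10918 genes that could be tested had such a class. A stricter count took genes with at least 10 UMIs in the named nuclei of every library and asked for at least 2-fold over all other named nuclei in each library that held the class. It was met by 2 of the 6 members that could be tested, Il6r in neutrophil-like and Il11 in fibroblast-like nuclei, beside 20.5% of 12759 genes. Between libraries, 6 of the 9 genes with at least 30 UMIs in a class spanned at least 4-fold in at least 1 class (Il6, Il6r, Osm, Osmr, Lifr and Il11), and 56.3% of 14242 genes did so. Il6st, Stat3 and Socs3 stayed below 4-fold in the classes tested, which for Socs3 was the endothelial-like class alone, and Lif had too few UMIs. Below the minimum of UMIs, Socs3 spanned 17.7-fold (2.78 to 741) in cardiomyocyte-like nuclei, from 23 UMIs with 1 in library 1. No gene of the 10 was 2-fold higher in cardiomyocyte-like nuclei in every library, as 5.05% of genes were, and none of those with at least 30 UMIs in the class spanned 4-fold in neutrophil-like (11.9% of genes) or T- or NK-cell-like nuclei (1.54%). Lifr, with 21 UMIs in neutrophil-like nuclei, spanned 5.04-fold (1.76 to 13.8) there.

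Il6r, whose product binds IL-6 itself, was highest in leukocyte classes. Macrophage-like nuclei held 564 (494 to 641), 524 (506 to 544) and 426 (396 to 456) CPM in libraries 1, 3 and 4. Neutrophil-like nuclei held 519 (384 to 686), 560 (516 to 607) and 550 (440 to 681) CPM in libraries 2, 3 and 4, and the 104 dendritic-like nuclei of library 3 held 575 CPM. The intervals of these 3 myeloid classes overlapped in library 3, so their order there lies within counting error. Against all other named nuclei the macrophage-like level was higher by factors of 10.2 (8.80 to 11.8), 2.93 (2.80 to 3.07) and 3.80 (3.49 to 4.14), where 4.22% of genes were at least 2-fold higher in that class in each of its libraries. For the neutrophil-like level the factors were 4.20 (3.08 to 5.64), 2.45 (2.25 to 2.66) and 3.84 (3.06 to 4.77), and 3.11% of genes were 2-fold higher there. When unnamed clusters were given their highest class, the neutrophil-like level of library 2 was 171 CPM. B-cell-like and T- or NK-cell-like nuclei of library 3 came next, at 378 and 282 CPM.

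Fibroblast-like nuclei held an Il6r level of 161, 150, 150 and 144 CPM in libraries 1 to 4, and of 179, 142, 68.2 and 144 CPM with free RNA subtracted. Without that subtraction the highest and lowest library differed by 1.12-fold (0.989 to 1.26), and by 1.30-fold (1.15 to 1.47) with median-of-ratios scaling. Cardiomyocyte-like nuclei were lowest in library 1 at 19.8 CPM (16.8 to 23.1) and stood at 71.7, 170 and 79.8 CPM in libraries 2 to 4, a span of 8.6-fold (7.29 to 10.2), or 4.84-fold (4.11 to 5.75) with median-of-ratios scaling. In that class 38.7% of 13433 genes spanned at least 4-fold. Il6r in pericyte-like nuclei spanned 6.09-fold (3.66 to 10.8), from 33.4 CPM in library 1 to 203 CPM in library 3, where 25.8% of genes spanned at least 4-fold, and the lymphatic-endothelial-like class gave 4.74-fold (1.90 to 15.2), where 15.7% did. Neither of these 2 spans kept its libraries with free RNA subtracted. Pericyte-like nuclei then held 20.9, 305, 48.1 and 84.9 CPM, with library 2 highest, and lymphatic-endothelial-like nuclei 14.9, 0 and 27.4 CPM in libraries 1, 3 and 4, with library 3 lowest. Leukocyte markers moved the same way in the cardiomyocyte-like class. All 10 macrophage markers were seen in each library and together made 19.2, 199, 913 and 345 CPM there, and the neutrophil markers, 7, 9, 10 and 10 of 10 seen, made 17.2, 194, 833 and 324 CPM, with Cxcr2, Trem1 and Ngp at 0 in library 1 and Ngp at 0 in library 2. The part of leukocyte RNA in the cardiomyocyte-like Il6r values was not tested. With free RNA subtracted, Il6r in cardiomyocyte-like nuclei came to 0 in all 4 libraries, while the neutrophil-like levels became 1085, 1105 and 1174 CPM.

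**Figure D1:**
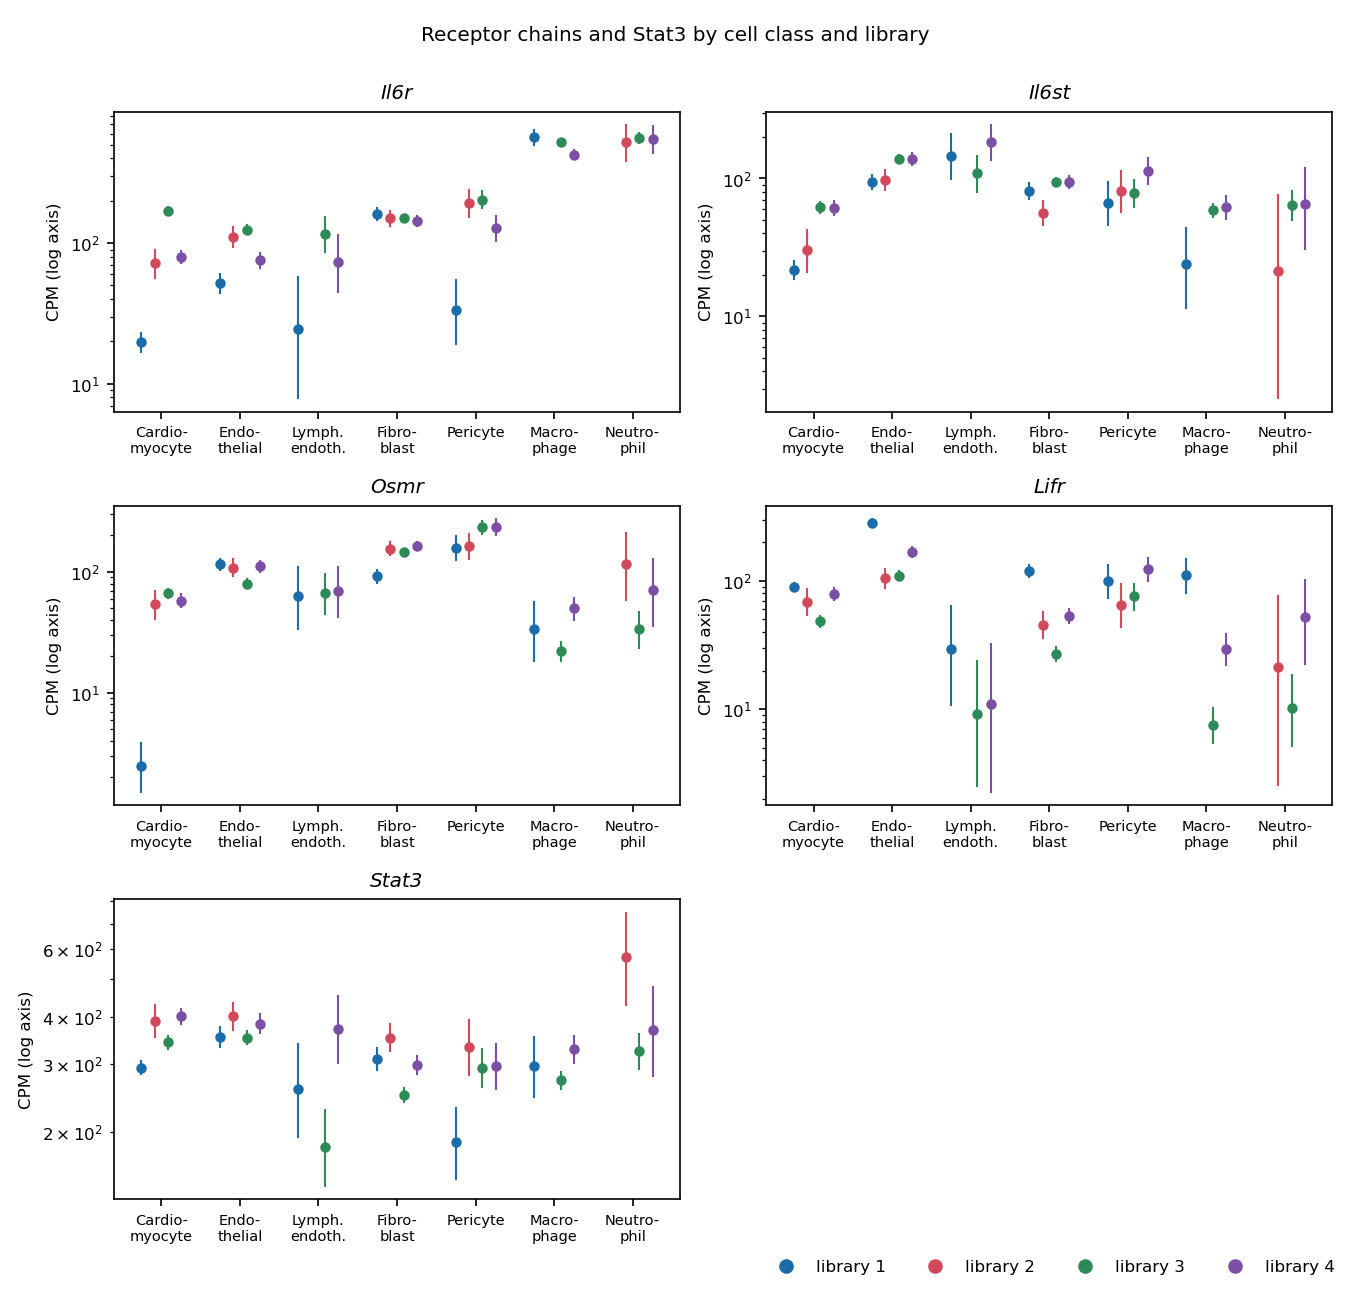
Levels of Il6r, Il6st, Osmr, Lifr and Stat3 in CPM on a log axis, by cell class (x axis) and library (colour), with 95% exact Poisson intervals as vertical lines. Il6r is high in macrophage-like and neutrophil-like nuclei, Osmr in pericyte-like and Lifr in endothelial-like nuclei, and the Osmr level of cardiomyocyte-like nuclei of library 1 lies at 2.49 CPM, below all its other points.

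Il6st, the shared gp130 chain, was highest in endothelium. Endothelial-like nuclei held 94.5 (83.9 to 106), 97.8 (82.1 to 116), 139 (130 to 148) and 139 (126 to 152) CPM in libraries 1 to 4, and lymphatic-endothelial-like nuclei 147, 109 and 184 CPM in libraries 1, 3 and 4. The intervals of these 2 classes overlapped in each of the 3 libraries. Cardiomyocyte-like nuclei, at 21.6, 30.5, 61.7 and 60.8 CPM, and macrophage-like nuclei, at 23.9, 58.8 and 61.9 CPM, were low. With free RNA subtracted, Il6st came to 0 in each library's cardiomyocyte-like nuclei and to 7.65, 21.6 and 1.08 CPM in macrophage-like nuclei, against 105.5, 139, 210.3 and 154 CPM in endothelial-like nuclei. The endothelial-like level was 2.35-fold (2.03 to 2.73), 1.95-fold, 1.88-fold and 1.76-fold that of the other named nuclei, and 3.38% of genes reached 2-fold in this class in all 4 libraries. The lymphatic level was 2.95-fold, 1.26-fold and 2.06-fold that of the others, and 3.04% of genes reached 2-fold there in each library. Between libraries Il6st spanned less than 4-fold in each of 8 classes. The span was 3.06-fold (0.652 to 28.7) in neutrophil-like nuclei, with 2 UMIs in library 2, and 2.85-fold (2.39 to 3.41) in cardiomyocyte-like nuclei between libraries 1 and 3. With median-of-ratios scaling the cardiomyocyte-like span was 1.95-fold (1.36 to 2.87), between libraries 2 and 4.

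Within the endothelium Il6st was uneven. In libraries 1, 3 and 4 a cluster whose leading genes included Nrg1, Pkhd1l1, Cgnl1 and Zmat4 held the highest level, 341 CPM (271 to 425) in 133 nuclei of library 1, 242 CPM in 498 nuclei of library 3 and 301 CPM in 247 nuclei of library 4. The last of these was left unnamed although its highest score was endothelial. The other clusters with an endothelial score held 21.6 to 152 CPM. Library 2 had a single endothelial-like cluster, at 97.8 CPM. The clusters were made from 2000 variable genes of the same nuclei, so this contrast between clusters is a description.

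Osmr, the chain that pairs with gp130 for oncostatin M, was highest in pericyte-like nuclei. Pericyte-like nuclei held 159 (125 to 199), 163 (127 to 206), 233 (204 to 264) and 234 (200 to 272) CPM in libraries 1 to 4 and led in all 4. Fibroblast-like nuclei held 92.3 (81.5 to 104), 155 (137 to 175), 146 (138 to 154) and 163 (151 to 175) CPM, and endothelial-like nuclei 115, 108, 79.8 and 111 CPM. Pericyte-like and fibroblast-like intervals were apart in libraries 1, 3 and 4 and overlapped in library 2. The pericyte-like level was 3.52-fold, 1.44-fold, 2.81-fold and 2.32-fold that of the other named nuclei, so that library 2 stayed under 2-fold, and 1.07% of genes reached 2-fold in this class in all 4 libraries. In macrophage-like nuclei Osmr stood at 33.5, 22.0 and 49.9 CPM. The 41 epicardial-like nuclei of library 3, a class too small for the counts above, held 308 CPM. With free RNA subtracted, the pericyte-like levels became 189, 332, 619 and 504 CPM and the macrophage-like levels 23.8, 0 and 0 CPM.

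The widest step of any receptor chain between libraries was that of Osmr in cardiomyocyte-like nuclei. Only 20 UMIs were counted among 8040281 in library 1, or 2.49 CPM (1.52 to 3.84), against 53.7, 66.4 and 57.9 CPM in libraries 2 to 4. The lowest and highest differed by 26.7-fold (17.1 to 44.1), and by 15.1-fold (9.64 to 24.9) with median-of-ratios scaling, which multiplies the library 1 levels of this class by 1.79. Libraries 2, 3 and 4 were each at least 2-fold above library 1 in this class for 34.8% of genes, Osmr and Il6r among them. In the cardiomyocyte-like clusters of libraries 3 and 4 the Osmr level ran from 22.5 to 90.1 CPM and from 23.6 to 72.1 CPM. In library 1 the cluster of 2425 nuclei lay at 1.99 CPM. In cardiomyocyte-like nuclei of libraries 1 to 4 the fibroblast markers, all 10 seen, summed to 151, 1234, 4210 and 1799 CPM. The endothelial markers, all 9 seen, summed to 131, 785, 752 and 1287 CPM. Both were lowest in library 1, as Osmr was. The pericyte markers, all 7 seen, were highest there, at 1045, 879, 577 and 616 CPM. The part of any of these in the Osmr values was not tested. With free RNA subtracted, Osmr in this class came to 0, 0, 9.93 and 0 CPM.

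Lifr, the chain for leukaemia inhibitory factor and cardiotrophin, was highest in endothelial-like nuclei of every library, at 282 (263 to 302), 105 (88.6 to 123), 110 (102 to 118) and 167 (153 to 182) CPM. The other named nuclei were exceeded by factors of 2.91 (2.66 to 3.18), 1.90 (1.52 to 2.37), 3.70 (3.34 to 4.10) and 2.64 (2.37 to 2.94). The lymphatic-endothelial-like class held only 29.3, 9.26 and 11 CPM, from 6, 4 and 3 UMIs, and so stood with the low classes for Lifr while it stood with the high ones for Il6st. Cardiomyocyte-like nuclei held 89.6, 69.0, 48.3 and 79.2 CPM. In pericyte-like nuclei the Lifr level was 100, 65.3, 75.6 and 123 CPM. In the pericyte-like class of library 4 the interval, 99.0 to 151 CPM, fell short of the endothelial-like one.

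Library 1 was highest for Il6r in fibroblast-like and macrophage-like nuclei and for Osmr in endothelial-like nuclei. Lifr was highest in library 4 in pericyte-like nuclei, at 123 CPM. In endothelial-like, fibroblast-like, macrophage-like and cardiomyocyte-like nuclei library 1 was highest for Lifr. In cardiomyocyte-like nuclei this turned with free RNA subtracted, since Lifr then stood at 47.7, 76.9, 59.8 and 59.9 CPM and library 1 was lowest. The free-RNA share of library 1 was put at 47.0% there, an upper estimate. With median-of-ratios scaling library 1 stayed highest in this class, at 161 CPM, so the order of its libraries is not settled. Fibroblast-like nuclei held 119 CPM (107 to 132) in library 1 and 45.5, 27.0 and 53.2 CPM in libraries 2 to 4, so that library 1 was at least 2-fold above each of the others, as it was for 3.86% of genes in that class. Library 1 was not 2-fold above each other library for Lifr in endothelial-like nuclei, where 2.27% of genes were so, nor in cardiomyocyte-like nuclei, where 2.35% were. The fibroblast-like span was 4.41-fold (3.72 to 5.23), and 26.1% of genes spanned 4-fold there. Endothelial-like nuclei spanned 2.69-fold (2.26 to 3.22), where 28.1% of genes spanned 4-fold. Macrophage-like nuclei held 110 (80.5 to 147), 7.56 (5.49 to 10.2) and 29.3 (22.0 to 38.2) CPM in libraries 1, 3 and 4, a span of 14.5-fold (9.41 to 22.5), where 18.4% of genes spanned 4-fold. The library 3 value was 14.9 CPM when unnamed clusters were given their highest class. Endothelial markers, all 9 seen, summed to 1637, 469 and 1847 CPM in those macrophage-like nuclei, and their part in the Lifr values was not tested. The free-RNA-subtracted macrophage-like levels of Lifr were 93.3, 0 and 0 CPM.

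**Figure D2:**
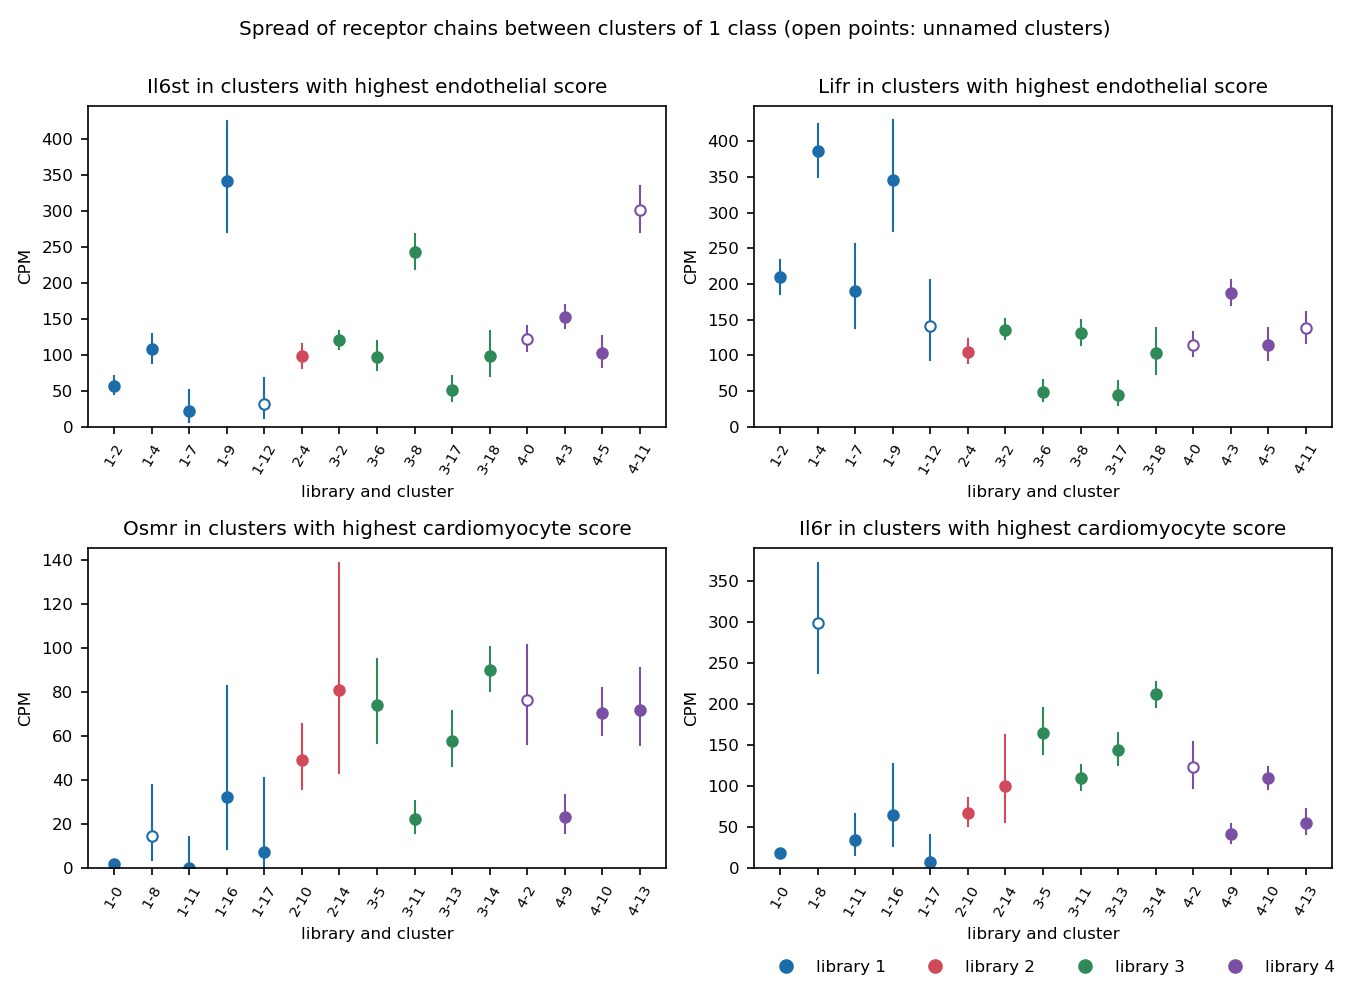
Level of Il6st and Lifr in each cluster with a highest endothelial score, and of Osmr and Il6r in each cluster with a highest cardiomyocyte score, in CPM with 95% exact Poisson intervals; the x axis names library and cluster, colours are libraries and open points are unnamed clusters. Il6st peaks in clusters 1-9, 3-8 and 4-11, and Osmr is near 0 in the largest cardiomyocyte-like cluster of library 1.

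The ligands were scarce, and library 2 held the most of 3 of them. Over all nuclei used, Il6 stood at 0.0639, 12.4, 1.40 and 1.67 CPM in libraries 1 to 4, Osm at 0.639, 12.7, 3.31 and 2.75 CPM, and Il11 at 0.767, 25.2, 4.86 and 5.29 CPM. The intervals of library 2, 10.6 to 14.5 CPM for Il6, 10.8 to 14.8 CPM for Osm and 22.5 to 28.1 CPM for Il11, lay above those of the other 3 libraries. Lif, at 0.447, 1.33, 0.414 and 0.686 CPM, had overlapping intervals in libraries 1, 2 and 4. The windows of 250 bases before the RefSeq gene starts of Il6 and Il11 are shown because these 2 ligands had their highest level in the same library. They come from assembly GRCr8, Il6 at chr4:5894576-5894825 on the minus strand and Il11 at chr1:78098372-78098621 on the plus strand. Capitals mark a TGACGTCA (the cyclic AMP response motif) that starts 162 bases and a GGGATTTTCC (an NF-kappa-B motif) that starts 68 bases before the Il6 gene start, and a TGAGTCA (the AP-1 motif) that starts 142 bases before that of Il11.
Il6: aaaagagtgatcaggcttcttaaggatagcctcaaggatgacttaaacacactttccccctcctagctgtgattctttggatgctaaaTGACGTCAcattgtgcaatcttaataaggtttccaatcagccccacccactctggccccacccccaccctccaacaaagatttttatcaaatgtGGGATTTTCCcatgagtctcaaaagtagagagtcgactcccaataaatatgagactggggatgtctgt
Il11: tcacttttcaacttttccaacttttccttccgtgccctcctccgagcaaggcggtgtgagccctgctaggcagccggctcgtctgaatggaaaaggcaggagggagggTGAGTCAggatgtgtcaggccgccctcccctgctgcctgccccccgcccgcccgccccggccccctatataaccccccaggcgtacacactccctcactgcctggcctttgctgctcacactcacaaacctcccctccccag

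Both strands of such windows were searched for 4 motifs in 33469 RefSeq gene starts. The NF-kappa-B pattern, 3 G, 2 free bases and TTTCC, was in 1.30% of them, TGACGTCA in 1.59%, TGAGTCA in 4.05% and the STAT motif TTCNNNGAA in 7.67%. Of the 10 genes, 8 had a window in the table, Osm and Lif being the ones without an entry. None of the 8 windows held TTCNNNGAA, and those of Il6r, Il6st, Osmr, Lifr, Socs3 and Stat3 held none of the 4 motifs. A match is a description of letters and not of a bound site.

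In libraries 2 and 3 no single class stood above all others for Il6 beyond counting error. In library 2 it stood at 14.2 CPM (8.65 to 21.9) in endothelial-like, 14.0 (8.97 to 20.8) in fibroblast-like, 16.3 (6.56 to 33.6) in pericyte-like and 13.1 (10.7 to 15.8) in unnamed nuclei, with overlapping intervals. Cardiomyocyte-like nuclei of that library held 2.69 CPM from 3 UMIs. The neutrophil-like class, of 94493 UMIs, held none, but its upper bound of 39.0 CPM lies above all these levels. Free-RNA shares were put at 53.55, 52.54 and 81.62% in the endothelial-like, fibroblast-like and pericyte-like classes of library 2. With free RNA subtracted their Il6 levels were 16.0, 15.6 and 29.8 CPM, and the cardiomyocyte-like level was 0. The part of free RNA in the likeness of these levels was not tested. In library 3 the fibroblast-like class held 25 of the 53 Il6 UMIs of named nuclei, at 2.89 CPM (1.87 to 4.26), 2.53-fold (1.41 to 4.49) above the other named nuclei. The pericyte-like level there was 5.89 CPM (2.16 to 12.8) from 6 UMIs, and macrophage-like nuclei held none among 3297. In library 1 a single Il6 UMI was counted in all 8363 nuclei used. Against the limit of 3 counts per library that a count of 0 allows, library 2 was at least 14.2-fold above library 1 in endothelial-like nuclei and at least 13.2-fold above it in fibroblast-like nuclei. Without library 2, the fibroblast-like bound is at least 2.73-fold, of library 3 over library 1.

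Osm, a ligand known from activated myeloid cells, was highest per UMI in myeloid classes of libraries 3 and 4. Macrophage-like nuclei held 5.84 CPM (4.05 to 8.16) and 11.4 CPM (7.06 to 17.4), with ratios of 2.42 (1.55 to 3.71) and 7.26 (3.82 to 13.7) to the other named nuclei, and neutrophil-like nuclei held 9.34 and 25.9 CPM from 10 and 4 UMIs. The pericyte-like class of library 2 stood at 32.7 CPM (17.9 to 54.8) from 14 UMIs in 13 of 548 nuclei, beside 31.7 CPM from 3 UMIs in neutrophil-like, 12.7 CPM in endothelial-like and 13.6 CPM in unnamed nuclei. In that class of library 2, macrophage markers summed to 490 CPM and neutrophil markers to 466 CPM, against 68.9 and 45.9 CPM in library 1, where Csf1r, C1qa, C1qb and Adgre1 and 7 of the 10 neutrophil markers were at 0. Whether leukocyte RNA adds to the Osm value was not tested, and the free-RNA-subtracted level of the class was 108 CPM. The cardiomyocyte-like span of Osm, 50.4-fold (6.48 to 2272), and the endothelial-like one, 38.4-fold (6.07 to 1602), both rest on 1 UMI in library 1. With free RNA subtracted, Osm in cardiomyocyte-like nuclei came to 0, 0, 0.677 and 0 CPM in libraries 1 to 4, and in endothelial-like nuclei to 0.244, 12.7, 0 and 0 CPM. Without library 2 both classes have fewer than 30 Osm UMIs.

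Il11, whose product is known as a fibroblast-acting cytokine, was the ligand with the clearest class. Fibroblast-like nuclei held 2.12 (0.776 to 4.60), 49.6 (39.6 to 61.3), 8.78 (6.92 to 10.99) and 13.8 (10.6 to 17.6) CPM in libraries 1 to 4, from 6, 85, 76 and 62 UMIs. That was 4.35-fold, 3.22-fold, 2.22-fold and 5.32-fold the level of the other named nuclei, where 4.28% of genes reached 2-fold in this class in all 4 libraries. The span over libraries was 23.4-fold (10.3 to 65.7), and 6.50-fold (2.83 to 18.4) without library 2. Cardiomyocyte-like nuclei spanned 36.0-fold (7.67 to 338) from 2 UMIs in library 1, and 9.91-fold (2.39 to 87.8) without library 2, and endothelial-like nuclei 53.4-fold (8.74 to 2192) from 1 UMI and with fewer than 30 UMIs without library 2. With free RNA subtracted, Il11 came to 0 in each library's cardiomyocyte-like nuclei and to 0.209, 9.02, 0.321 and 0 CPM in endothelial-like nuclei, while the fibroblast-like levels became 2.40, 75.8, 11.6 and 20.9 CPM. The UMIs were unevenly shared between nuclei. In cluster 5 of library 2, 83 UMIs lay in 52 of 899 nuclei with up to 12 in 1 nucleus. The 41 epicardial-like nuclei of library 3 held 145 CPM (105 to 196), but its 42 UMIs came from 7 nuclei, with 14 in 1 of them, and the 33 such nuclei of library 4 held 2 UMIs.

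Lif had 39 UMIs in all named nuclei, of which 6, 4, 5 and 6 lay in fibroblast-like nuclei of libraries 1 to 4. No class reached 30 Lif UMIs, so no span was read. Pericyte-like and neutrophil-like nuclei held none in any library.

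**Figure D3:**
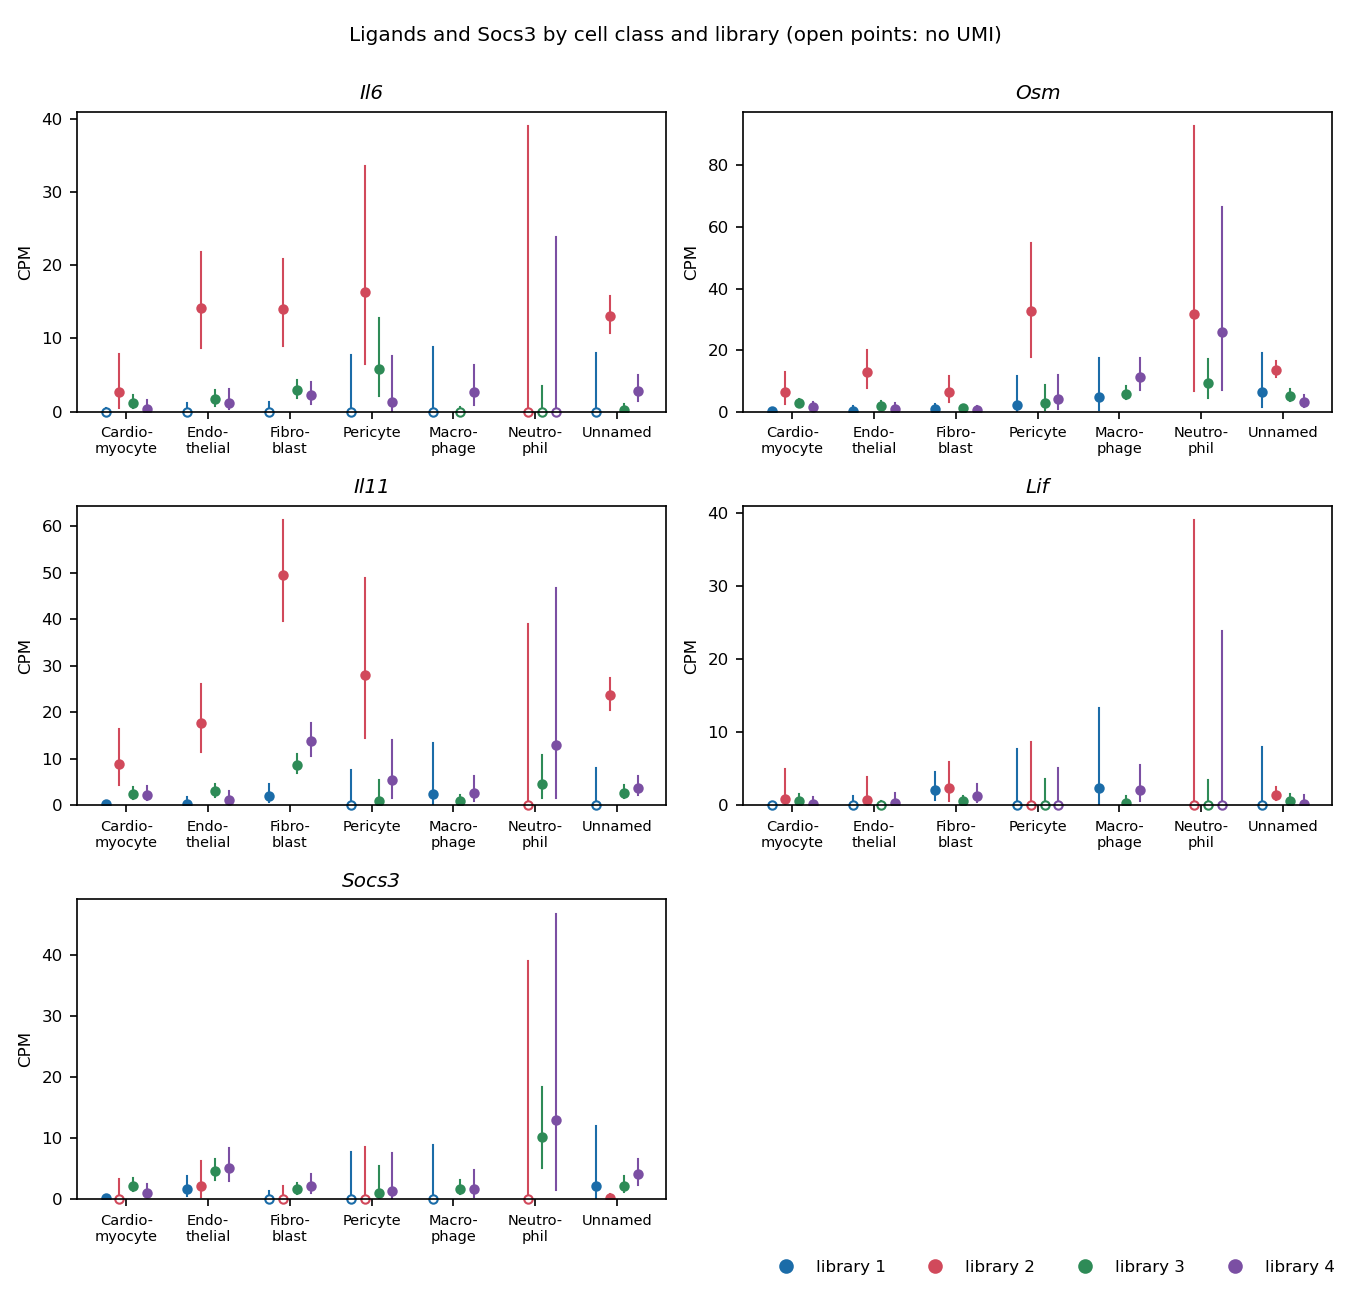
Levels of Il6, Osm, Il11, Lif and Socs3 in CPM by cell class (x axis, unnamed nuclei last) and library (colour), with 95% exact Poisson intervals; open points mark classes with no UMI, for which the line shows the upper bound. Library 2 is highest for Il6, Osm and Il11 in endothelial-like, fibroblast-like and pericyte-like nuclei, and Il11 stands at 49.6 CPM in its fibroblast-like nuclei.

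Stat3, the transcription factor downstream of gp130, was present in every class, at 183 to 572 CPM in those with at least 50 nuclei. Cardiomyocyte-like nuclei held 294, 390, 342 and 401 CPM in libraries 1 to 4, endothelial-like nuclei 354, 401, 352 and 383, and fibroblast-like nuclei 309, 352, 250 and 299. The pericyte-like class held 188, 334, 294 and 297 CPM of Stat3. The 4 libraries were led by 4 different classes. Schwann-like nuclei led library 1 and neutrophil-like nuclei library 2, and both intervals overlapped the endothelial-like one. In library 3 the leading endothelial-like interval overlapped the cardiomyocyte-like one, so these leads lie within counting error. The widest span between libraries among the classes with at least 50 nuclei was 2.03-fold (1.498 to 2.76), in lymphatic-endothelial-like nuclei, and the cardiomyocyte-like span was 1.36-fold (1.28 to 1.45). With median-of-ratios scaling the cardiomyocyte-like order turned. Library 1 was then highest, at 528 CPM, and library 3 lowest, at 346 CPM, a span of 1.525-fold (1.44 to 1.61). Nuclear RNA of Stat3 says nothing of the phosphorylated protein.

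Socs3 was scarce in every library. Endothelial-like nuclei held 1.66, 2.12, 4.57 (3.08 to 6.52) and 5.19 (3.03 to 8.32) CPM from 5, 3, 30 and 17 UMIs, and their libraries spanned 3.13-fold (1.11 to 10.9). With median-of-ratios scaling that span was 2.65-fold (0.938 to 9.2), which lies within counting error. Neutrophil-like nuclei of library 3 held 10.3 CPM (5.13 to 18.4), 4.23-fold (2.03 to 7.98) above the other named nuclei. Fibroblast-like nuclei held none in libraries 1 and 2 and 1.62 and 2.22 CPM in libraries 3 and 4. Over all nuclei used Socs3 stood at 0.447 (0.180 to 0.922), 0.391 (0.127 to 0.912), 2.61 (2.13 to 3.17) and 2.94 (2.24 to 3.79) CPM, so libraries 3 and 4 lay above libraries 1 and 2, and library 2, highest for Il6, Osm and Il11, was not separated from library 1. These sums mix classes whose shares differ between libraries, and the part of that mix was not tested.

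Of 53 other genes listed for the pathway, 49 were found in the table under their symbols, and the list was chosen with earlier results of these data known. At least 2-fold enrichment in the leading class of every library was met by 11 of the 40 with enough UMIs, beside 20.5% of all genes tested, and a span of at least 4-fold between libraries in at least 1 class by 32 of 45, beside 56.3%. By role, the span was met by 4 of 6 other ligands, 4 of 4 other receptors, 2 of 5 kinases and STATs, 5 of 10 inhibitors and phosphatases, 0 of 2 sheddases and 17 of 18 genes known to be induced through gp130 and STAT3.

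Among the other ligands, Clcf1, the cardiotrophin-like cytokine, stood at 5.64, 43.8, 12.01 and 19.5 CPM in fibroblast-like nuclei of libraries 1 to 4 and was highest in library 2, as Il11 was. Ebi3, a subunit of IL-27, was 3.62-fold and 3.59-fold higher in macrophage-like than in the other named nuclei of libraries 3 and 4, from 87 and 14 UMIs.

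Among the other receptors, Il11ra1, the chain for IL-11, was spread over the classes and highest in library 2. It held 37.4, 84.2, 18.6 and 23.6 CPM in cardiomyocyte-like, 30.3, 54.8, 18.0 and 19.5 CPM in fibroblast-like and 56.4, 105, 29.5 and 13.7 CPM in pericyte-like nuclei. Cntfr, the receptor of ciliary neurotrophic factor, stood at 13.4 CPM in fibroblast-like nuclei of library 1 and at 1.75, 1.04 and 2.44 CPM in the others. Il27ra, the IL-27 receptor, held 2.32, 3.54, 7.46 and 4.28 CPM in endothelial-like nuclei, and 12.2 and 17.8 CPM in T- or NK-cell-like nuclei of libraries 3 and 4, from 12 and 7 UMIs.

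The kinase genes were broad. Jak1 held 317, 358, 340 and 323 CPM in endothelial-like nuclei and 113, 144, 179 and 154 CPM in cardiomyocyte-like nuclei, with 341 and 409 CPM in T- or NK-cell-like nuclei of libraries 3 and 4. Jak2 in cardiomyocyte-like nuclei stood at 30.2, 160, 171 and 159 CPM, so library 1 was lowest for it as for Osmr. Stat5a spanned up to 7.08-fold and Stat5b, at up to 444 CPM in neutrophil-like nuclei, at most 2.33-fold. The sheddase genes Adam10 and Adam17, whose products release IL-6 receptor from the cell surface, reached 464 CPM in lymphatic-endothelial-like nuclei of library 1 and 285 CPM in neutrophil-like nuclei of library 3, and spanned at most 1.99-fold and 2.70-fold.

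Among the inhibitors, Socs2 was highest in library 1, at 183, 86.0, 46.7 and 70.8 CPM in cardiomyocyte-like nuclei, whereas Socs5 was lowest there, at 41.5, 80.6, 123 and 102 CPM. The 9 cardiomyocyte markers of these nuclei had the same order of libraries as Socs2, at 33290, 21190, 10050 and 14620 CPM in sum, and the free-RNA share of their UMIs was put at 47.0, 62.1, 77.2 and 64.3%. Their part in the Socs2 values was not tested. Socs1 was at 14.7, 20.8 and 55.2 CPM in lymphatic-endothelial-like nuclei of libraries 1, 3 and 4, from 3, 9 and 15 UMIs. Pias1 spanned at most 1.54-fold. Ptpn6, the phosphatase SHP-1 of blood cells, followed the leukocytes, at 64.5, 149 and 89.6 CPM in macrophage-like nuclei and 63.5, 183 and 110 CPM in neutrophil-like nuclei. In cardiomyocyte-like nuclei Ptpn6 stood at 0.249, 10.8, 59.0 and 16.7 CPM, the order that the leukocyte markers and Il6r had there. The part of leukocyte RNA in these Ptpn6 values was not tested.

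Among genes known to be induced through gp130 and STAT3, the 3 named first here were lowest in library 1 in the classes given. Timp1, an inhibitor of matrix proteases, stood at 2.49, 111, 604 and 282 CPM in cardiomyocyte-like and at 16.9, 268, 992 and 767 CPM in fibroblast-like nuclei of libraries 1 to 4. Reg3g, a secreted lectin, stood at 0.663, 79.3, 468 and 30.6 CPM in endothelial-like nuclei. The last value leaves out the unnamed cluster of 247 nuclei of library 4 with a highest endothelial score, which has Reg3g among its 10 leading genes. Tnc, a matrix glycoprotein of injured tissue, stood at 66.6, 445, 340 and 392 CPM in fibroblast-like nuclei, but at 464 CPM in lymphatic-endothelial-like nuclei of library 1. Steap4, a metalloreductase, ran against them in pericyte-like nuclei, at 509, 91.0, 185 and 174 CPM. The 7 pericyte markers of the same nuclei were likewise highest in library 1 and lowest in library 2, at 13520, 2764, 5198 and 5357 CPM in sum, and the free-RNA share of their UMIs was put at 23.1, 81.6, 74.9 and 71.0%. The part of either in the Steap4 values was not tested. These genes respond to other signals too, and libraries 2, 3 and 4 were each at least 2-fold above library 1 for 17.1% of all genes in fibroblast-like and 17.2% in endothelial-like nuclei.

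**Figure D4:**
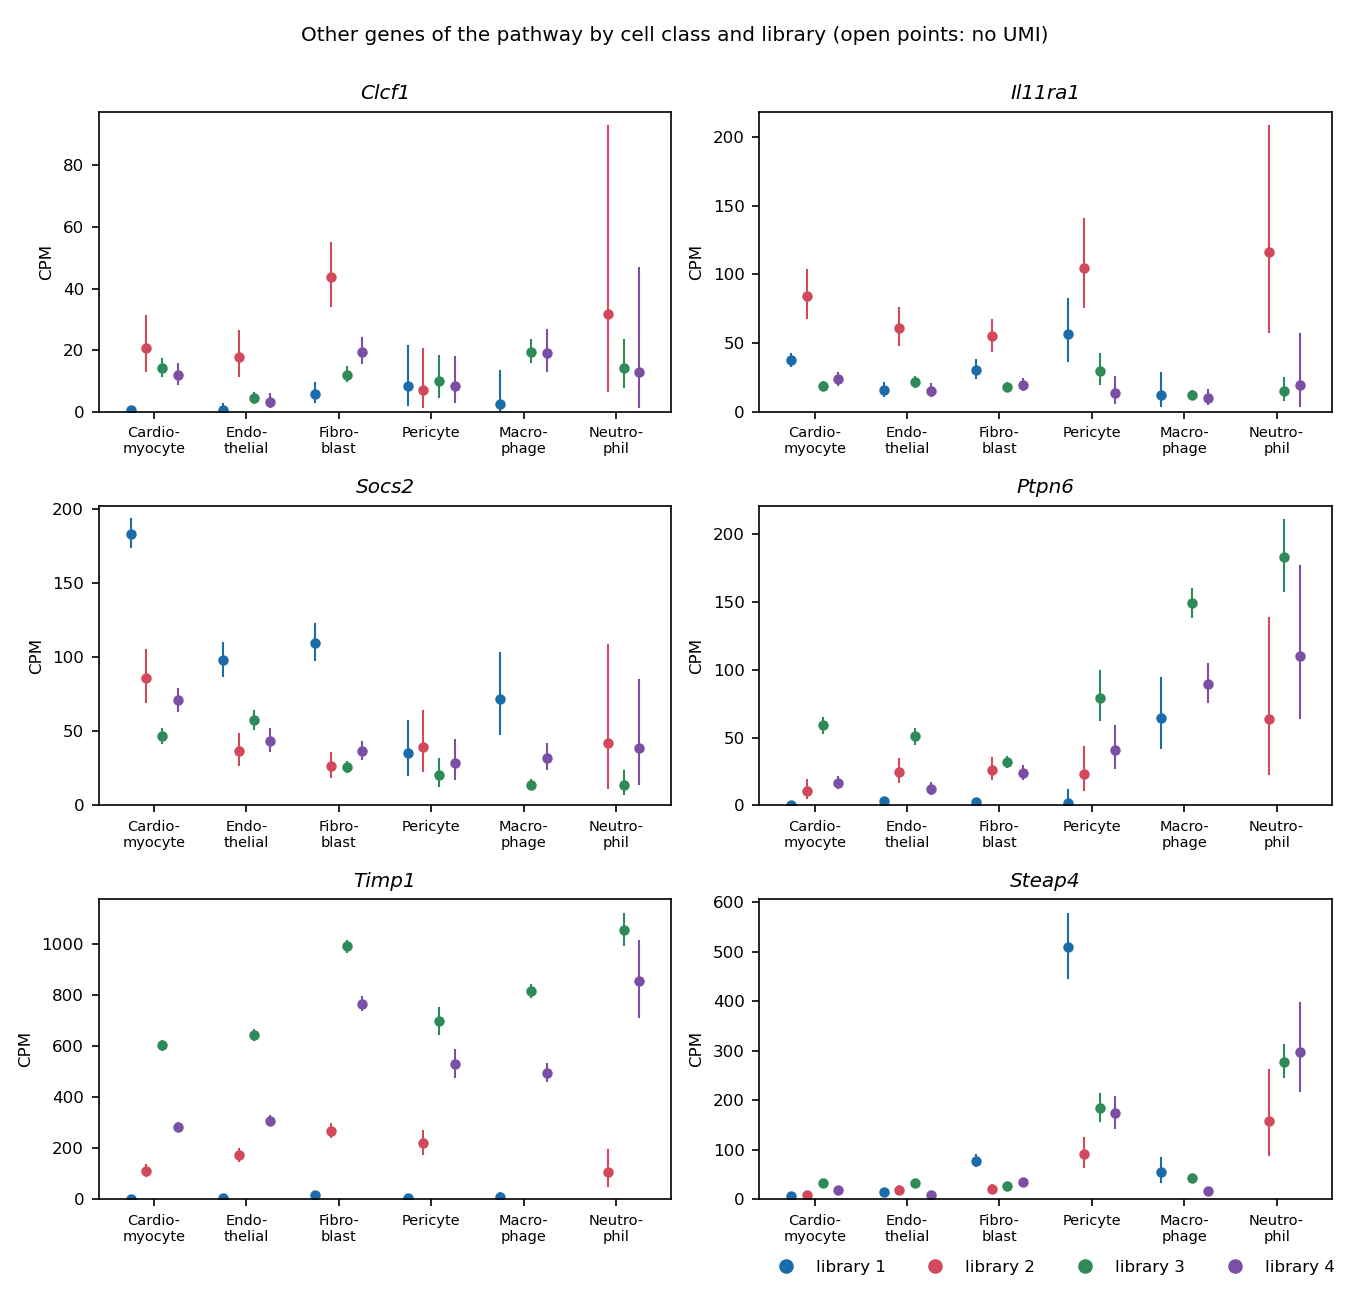
Levels of Clcf1, Il11ra1, Socs2, Ptpn6, Timp1 and Steap4 in CPM by cell class (x axis) and library (colour), with 95% exact Poisson intervals. Clcf1 is highest in library 2 among fibroblast-like nuclei, at 43.8 CPM, Timp1 is lowest in library 1, with 16.9 CPM in its fibroblast-like nuclei, and Steap4 is highest in pericyte-like nuclei of library 1, at 509 CPM.

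The genes whose levels ran most like those of the members were named by Pearson's r of log2(CPM + 10) over 31 class and library sums, among 11980 genes. The sums share libraries, depth and free RNA, so r is a description. The nearest to Il6r were Apbb1ip (0.956) and Myo1f (0.944), genes known from leukocytes. Osmr ran with Farp1 (0.856) and Ebf1 (0.848), Lifr with Adgrl2 (0.866) and Pdzd2 (0.858), and Il6st with Cnn3 (0.835) and Nr2f2 (0.817). For Osm the first was Cyp4f18 (0.869), for Il11 Sra1 (0.786) and for Stat3 Azin1 (0.722), and Il6, Lif and Socs3 had under 200 UMIs and were left out.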

How the data were processed

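The authors deposited 1 matrix of unnormalised UMI counts for 4 libraries. Nuclei were isolated with a Dounce homogeniser and sequenced with a 10x 3' v3 kit, per the labels' protocols. Its header names cellranger 5.0.1, per the file headers. Per the submitters' processing notes the tools were Cell Ranger 6.1.1 and Seurat with build rn7, so the version and build behind the counts are uncertain.

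Barcodes needed 500 UMIs, 300 genes and no more than 10% mitochondrial UMIs, and doublets were scored per library with scrublet in scanpy 1.11.5, the highest scores being removed at a share that grows with the number of nuclei (650, 1706, 2166 and 340 nuclei). Each library was clustered by itself (2000 variable genes, 30 components, 15 neighbours, Leiden resolution 1 with igraph 0.11.9). A cluster was named where at least 3 of its class's markers exceeded clusters of other classes 2-fold and were seen in 5% of nuclei. The mean log2 margin over the next unrelated class had to reach 0.5. A cluster stayed unnamed where its 10 leading genes held more markers of another class than of its own. It also did so where its median UMI count was low for the library and those genes held no own marker. The rule was set after clusters were seen. UMIs were summed by class and library. With 1 library per sample no test was made. Free RNA was estimated at 15.9% (lymphatic-endothelial-like, library 1) to 92.5% (B-cell-like, library 4) of UMIs over the classes, and at 47.0 to 77.2% in cardiomyocyte-like nuclei, an upper estimate. The functions behind the counts were checked on simulated data. The members, lists and markers were chosen with earlier results of these data known. All 10 members are named, and of each other list the 3 genes of highest level and the 2 of widest span, of which 1 gene is not reported here. Promoter windows are from RefSeq on GRCr8.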

Additional observations from a re-analysis of the deposited data

Results flagged for a closer look

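The unnamed nuclei lie outside the class comparisons, and each of the 10 genes gave more than 3 UMIs there, the count that a value of 0 allows. The libraries with the highest level in unnamed nuclei were library 2 for Il6 (13.1 CPM), Osm (13.6 CPM), Lif (1.37 CPM), Il11 (23.6 CPM), Osmr (114 CPM) and Stat3 (362 CPM), library 3 for Il6r (338 CPM), library 4 for Il6st (167 CPM) and Socs3 (4.10 CPM) and library 1 for Lifr (102 CPM). In library 2 the unnamed nuclei held 105 of 159 Il6, 109 of 162 Osm and 190 of 322 Il11 UMIs of the nuclei used, among 9823 of 12897 nuclei.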

How the results depend on the processing

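The number of genes with the same leading class in at least 3 libraries ran from 2 (without library 2) to 4 over 10 alternatives, against 3, and the number spanning 4-fold between libraries from 4 (without library 2) to 8 (free RNA subtracted, or a lower minimum of UMIs), against 6. The number at least 2-fold higher in the leading class in every library, 2, became 1 when unnamed clusters were given their highest class, 4 with free RNA subtracted and 5 without library 2, the last an alternative added after the data were seen, and was 2 or 3 otherwise. The cause was not tested. Of 124 single levels, free RNA subtraction moved 18 up and 36 down by over 1.5 times and median-of-ratios scaling 4 up and 0 down. Without the cluster of highest median UMI count, Il6r in cardiomyocyte-like nuclei of library 4 was 47.7 CPM and Il6st 31.5 CPM. No paired analysis was possible because each group has 1 library and no suffix is tied to a group. Depth limits the ligands and Socs3, whose class sums mostly held under 30 UMIs.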
